A study of Mus musculus with 8 samples.

Results

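Circadian clock genes form the loop of transcription factors by which cells keep a daily rhythm, and 10 of them were followed here through mouse soft tissue sarcomas and normal muscle: Clock, Arntl, Per1, Per2, Per3, Cry2, Nr1d1, Nr1d2, Dbp and Tef. They were chosen by symbol, though with earlier results of these data known, and all 10 were among the 12393 genes measured. Each gene was read from its probe set with the highest mean over 8 arrays. RNA came from 4 Ca/Ca sarcomas (numbered 1, 2, 3 and 5), 2 Ca/+ sarcomas (1 and 2), 1 Ca/Ca muscle and 1 Ca/+ muscle. Ca/Ca mice carried the conditional BrafCa allele on both chromosomes and Ca/+ mice on 1. All groups, muscles included, were p53 Fl/Fl, that is, they carried floxed p53 alleles. Tumours were started with an injected adenovirus that carries Cre recombinase, which cuts at floxed sites, and the muscles came from hind limbs free of tumour. The labels give neither the hour of harvest nor the age or the sex of the mice, nor whether each array had an animal of its own, so p-values describe the spread among these 8 samples, some of which may be technical.

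In the clock of mammals, CLOCK and BMAL1 (the product of Arntl) bind E-box elements and switch on the Per and Cry genes, whose proteins then block them. The same pair switches on Nr1d1 and Nr1d2, which encode the REV-ERB repressors that act on Arntl through ROR elements, and the genes of the PAR bZIP factors DBP and TEF, which act through D-box elements. In mouse tissues, skeletal muscle included, the RNA of Arntl peaks at a phase roughly opposite to that of Dbp, Nr1d1 and the Per genes, so that a single harvest reads a mixture of level and phase.

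Promoter sequence is shown for the clock genes with a match to an element through which this loop is known to act, since their levels are set side by side further on. The motifs searched, on both strands, were the E-box CACGTG, its variant CACGTT, the D-box TTATGNAA, a ROR element TAGGTCA and the cAMP element TGACGTCA. Windows ran from 250 bases before to 50 bases after a transcript start of RefSeq, build GRCm38.p6. Of the 10 genes, 9 (all but Per2) had a window, 14 windows in all, with or without a motif. Positions count from the transcript start, and the capitals mark the motif.
Per1 (chr11:69098699-69098948, plus strand, E-box at -166, D-box at -24): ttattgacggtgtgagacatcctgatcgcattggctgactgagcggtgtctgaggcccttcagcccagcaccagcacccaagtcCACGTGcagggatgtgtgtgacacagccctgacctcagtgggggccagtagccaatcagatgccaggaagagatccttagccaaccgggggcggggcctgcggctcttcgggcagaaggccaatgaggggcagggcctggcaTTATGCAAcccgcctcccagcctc
Per3 (chr4:151044666-151044915, minus strand, D-boxes at -205 and -158): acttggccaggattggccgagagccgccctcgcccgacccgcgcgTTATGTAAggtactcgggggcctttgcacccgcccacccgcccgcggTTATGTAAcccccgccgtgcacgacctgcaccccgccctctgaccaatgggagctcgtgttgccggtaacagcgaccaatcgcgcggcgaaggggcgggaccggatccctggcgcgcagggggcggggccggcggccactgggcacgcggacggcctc
Tef (chr15:81802423-81802672, plus strand, E-box at -127): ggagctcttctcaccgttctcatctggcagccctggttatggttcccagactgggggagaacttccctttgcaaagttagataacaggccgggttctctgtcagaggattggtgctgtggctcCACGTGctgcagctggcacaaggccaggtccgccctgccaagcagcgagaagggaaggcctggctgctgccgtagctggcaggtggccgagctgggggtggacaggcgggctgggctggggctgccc
Nr1d1 (chr11:98775378-98775627, minus strand, E-box variant at -28, read as AACGTG on this strand): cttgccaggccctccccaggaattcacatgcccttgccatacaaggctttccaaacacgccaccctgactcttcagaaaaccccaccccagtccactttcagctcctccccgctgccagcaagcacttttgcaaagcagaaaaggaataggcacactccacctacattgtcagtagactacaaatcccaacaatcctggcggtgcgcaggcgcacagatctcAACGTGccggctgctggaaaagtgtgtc
Cry2 (chr2:92434070-92434319, minus strand, E-box variant at -166, likewise read as AACGTG): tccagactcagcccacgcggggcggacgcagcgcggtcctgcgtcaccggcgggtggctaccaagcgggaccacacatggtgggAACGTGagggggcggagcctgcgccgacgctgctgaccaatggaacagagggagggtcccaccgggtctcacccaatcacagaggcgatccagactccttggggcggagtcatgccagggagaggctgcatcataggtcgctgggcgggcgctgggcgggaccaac
Arntl (chr7:113207531-113207560, plus strand, ROR element at +31, in 1 of its 2 windows): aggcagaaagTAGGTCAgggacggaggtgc
The E-box was found in windows of 2 of the 9 genes (Per1 and Tef), its variant in 2 (Nr1d1 and Cry2), the D-box in 2 (Per1 and Per3), the ROR element in 1 (Arntl) and the cAMP element in 0. Counted by window, these were 3, 2, 2, 1 and 0 of 14. Over all 32851 promoter windows of the same length the shares were 7.15%, 4.68%, 3.38%, 2.61% and 1.79%. A match is only a run of letters, and a window without one says nothing of elements elsewhere in the gene.

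The design compares sarcoma with muscle. Of the 10 clock genes, 3 fell in sarcoma, 0 rose and 7 did not pass limma's test at an adjusted p of 0.05, where 26.3% of all genes passed, 13.2% lower and 13.1% higher. The 3 were Tef (4.46-fold lower), Cry2 (2.40-fold lower) and Per3 (2.08-fold lower), an output factor and 2 genes of the repressor arm, and 5 of the 10 passed at an unadjusted p under 0.05, as did 4696 of the 12393 genes. The median difference of the 10 genes was -0.86 on the log2 scale, against 0.03 over all genes. It was -0.37 without the Ca/+ muscle, -1.35 without the Ca/Ca muscle, -0.42 with the mean of each gene's probe sets, and 0.05 over the 5 clock genes left without the dimmest 50% of genes. In 5 genes (Tef, Cry2, Per3, Dbp and Nr1d1) all 6 sarcomas lay below both muscles, an arrangement met in 19% of all genes, and in 0 did all lie above both, met in 20%. Levels near the floor of the arrays understate a difference. The Y-linked genes Eif2s3y, Uty and Kdm5d, on the 7 arrays without their RNA, read log2 levels of 2.03 to 3.72. That range serves here as a guide to the floor, which is not the same for every probe set: Upp2 read 1.52 to 1.92. In bulk tissue fewer cells of a type and less RNA per cell cannot be told apart.

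**Figure D1:**
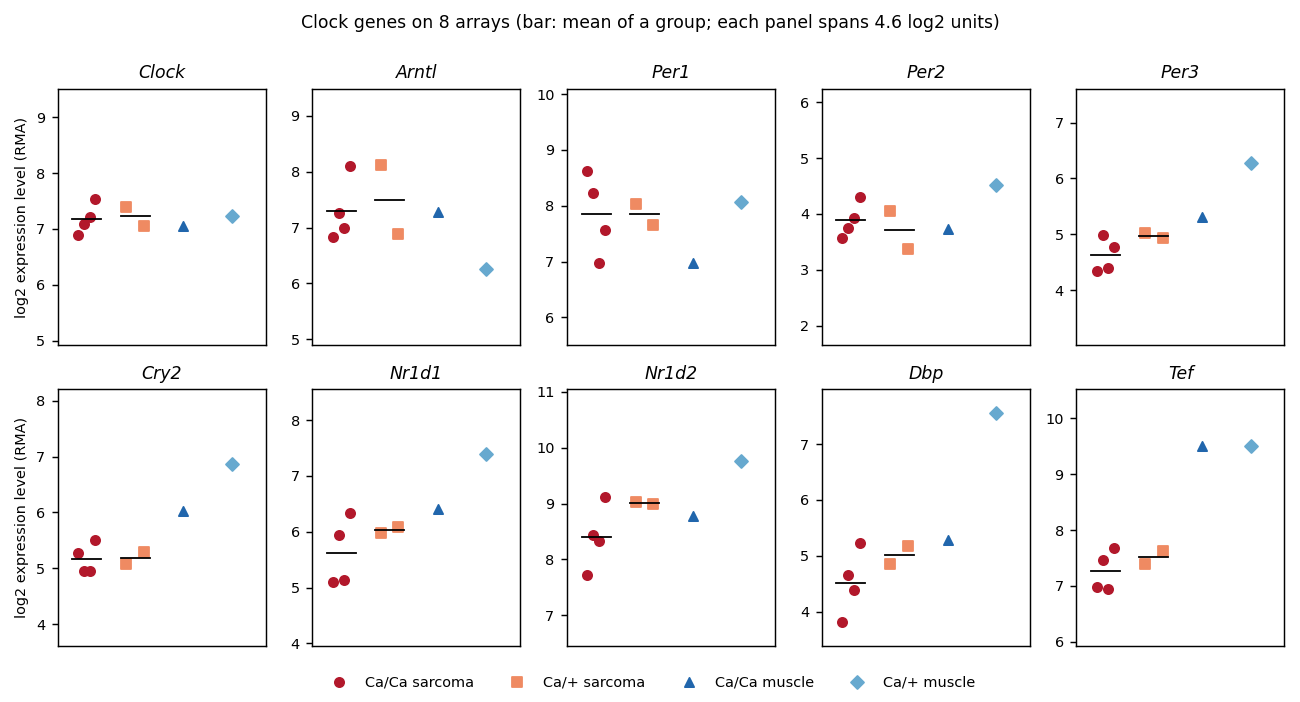
Log2 expression level (RMA) of each clock gene on every array, in Ca/Ca sarcomas (4 circles), Ca/+ sarcomas (2 squares), the Ca/Ca muscle (triangle) and the Ca/+ muscle (diamond), with bars at the mean of each group of more than 1 array. Tef stands at 6.94 to 7.67 in sarcomas and at 9.50 in both muscles, whereas the muscles lie far apart for Dbp, at 5.28 (Ca/Ca) and 7.55 (Ca/+).

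Tef and Dbp are the output arm. The log2 level of Tef was 6.98, 7.47, 6.94 and 7.67 in Ca/Ca sarcomas 1, 2, 3 and 5 and 7.40 and 7.62 in Ca/+ sarcomas 1 and 2, against 9.50 in Ca/Ca muscle and 9.50 in Ca/+ muscle. The 2 groups were far apart, and the muscles, which differed for most other clock genes, were level here. Tef fell by 2.16 (SE 0.22, limma adjusted p = 0.000371), and without any 1 array the fall lay between 2.08 and 2.22 and passed. Its other probe sets were dim, with mean levels of at most 4.01, and did not pass in a fit over all probe sets (-0.16, adjusted p = 0.558, and -0.68, adjusted p = 0.261).

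Dbp, whose RNA has one of the steepest daily swings known in mouse tissues, read 3.81, 4.65, 4.39 and 5.22 in Ca/Ca sarcomas 1, 2, 3 and 5 and 4.85 and 5.17 in Ca/+ sarcomas 1 and 2, against 5.28 in Ca/Ca muscle and 7.55 in Ca/+ muscle. All sarcomas were below both muscles, but the highest sarcoma almost reached the Ca/Ca muscle. The difference of -1.73 (SE 0.57, 95% interval -3.04 to -0.43) did not pass (limma adjusted p = 0.0557). Leaving out the Ca/+ muscle gave -0.60 (adjusted p = 0.529), and leaving out the Ca/Ca muscle gave -2.86 (adjusted p = 0.00785). The second Dbp probe set followed the first over the 8 arrays (r = 0.98, a description) and gave -1.24 (adjusted p = 0.122).

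Among the repressors, Cry2, a cryptochrome that holds CLOCK and BMAL1 in check, had levels of 5.28, 4.95, 4.96 and 5.50 in Ca/Ca sarcomas 1, 2, 3 and 5 and of 5.08 and 5.29 in Ca/+ sarcomas 1 and 2, against 6.02 in Ca/Ca muscle and 6.86 in Ca/+ muscle. The sarcomas were tightly grouped below both muscles. Cry2 fell by 1.26 (SE 0.24, limma adjusted p = 0.0062), and with the Ca/+ muscle left out it did not pass (-0.84, adjusted p = 0.0717).

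Per3, the period gene least needed for behavioural rhythms in mice, was 4.34, 4.99, 4.39 and 4.77 in Ca/Ca sarcomas 1, 2, 3 and 5 and 5.02 and 4.93 in Ca/+ sarcomas 1 and 2, against 5.31 in Ca/Ca muscle and 6.28 in Ca/+ muscle. The groups did not overlap. Per3 fell by 1.05 (SE 0.29, limma adjusted p = 0.0287), with -0.57 (adjusted p = 0.312) without the Ca/+ muscle. Its other probe sets, with mean levels of 3.80 and 3.50, close to the floor, gave -0.03 and 0.15 and did not pass.

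Per1, a period gene that also answers quickly to cAMP and glucocorticoid signals, did not follow Per3. It read 8.63, 8.23, 6.97 and 7.57 in Ca/Ca sarcomas 1, 2, 3 and 5 and 8.03 and 7.66 in Ca/+ sarcomas 1 and 2, against 6.98 in Ca/Ca muscle and 8.06 in Ca/+ muscle. Sarcomas and muscles overlapped, and the Ca/Ca sarcomas held both the highest and the lowest value. The difference was 0.33 (SE 0.44, 95% interval -0.67 to 1.33, limma adjusted p = 0.631), or -0.16 under housekeeping centring. Per2 was dim, at 3.57, 3.74, 3.93 and 4.31 in Ca/Ca sarcomas 1, 2, 3 and 5 and 4.05 and 3.38 in Ca/+ sarcomas 1 and 2, against 3.73 in Ca/Ca muscle and 4.51 in Ca/+ muscle. Its groups overlapped at levels close to the floor, and the difference was -0.29 (SE 0.28, limma adjusted p = 0.499).

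Neither REV-ERB gene passed. Nr1d1 had levels of 5.10, 5.95, 5.13 and 6.33 in Ca/Ca sarcomas 1, 2, 3 and 5 and of 5.97 and 6.09 in Ca/+ sarcomas 1 and 2, against 6.40 in Ca/Ca muscle and 7.40 in Ca/+ muscle. All sarcomas were below both muscles, with Ca/Ca sarcoma 5 just below the Ca/Ca muscle. The difference of -1.14 (SE 0.40, 95% interval -2.04 to -0.23) had a limma adjusted p of 0.0667, which was 0.487 without the Ca/+ muscle (-0.64) and 0.0434 without Ca/Ca sarcoma 5 (-1.25). Nr1d2 was 7.72, 8.44, 8.32 and 9.12 in Ca/Ca sarcomas 1, 2, 3 and 5 and 9.025 and 9.002 in Ca/+ sarcomas 1 and 2, against 8.77 in Ca/Ca muscle and 9.77 in Ca/+ muscle. The groups overlapped, as 3 of 6 sarcomas lay below the Ca/Ca muscle and 6 of 6 below the Ca/+ muscle. Its difference was -0.66 (SE 0.41, 95% interval -1.60 to 0.28, limma adjusted p = 0.282), with -0.16 without the Ca/+ muscle and -1.16 without the Ca/Ca muscle. Its other probe set, with a mean level of 2.65 within the range of the floor, gave -0.02, and the mean of both gave -0.34.

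The activators did not pass. Arntl was 6.84, 7.27, 6.99 and 8.10 in Ca/Ca sarcomas 1, 2, 3 and 5 and 8.12 and 6.88 in Ca/+ sarcomas 1 and 2, against 7.28 in Ca/Ca muscle and 6.26 in Ca/+ muscle. All 6 sarcomas were above the Ca/+ muscle and 4 were below the Ca/Ca muscle. The difference was 0.60 (SE 0.44, 95% interval -0.40 to 1.60, limma adjusted p = 0.366), with 0.09 without the Ca/+ muscle and 1.11 without the Ca/Ca muscle. Clock varied little, at 6.89, 7.09, 7.21 and 7.54 in Ca/Ca sarcomas 1, 2, 3 and 5 and 7.39 and 7.06 in Ca/+ sarcomas 1 and 2, against 7.05 in Ca/Ca muscle and 7.24 in Ca/+ muscle. The groups overlapped fully, and the difference was 0.05 (SE 0.18, 95% interval -0.37 to 0.47, limma adjusted p = 0.875), with a sign that turned under all 3 scalings tried. In the other Clock probe set, with a mean level of 6.17, all 6 sarcomas (5.68 to 6.42) lay below the Ca/Ca muscle (6.48) and the Ca/+ muscle (6.55). That probe set gave -0.45 and did not pass (limma adjusted p = 0.0988).

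**Figure D2:**
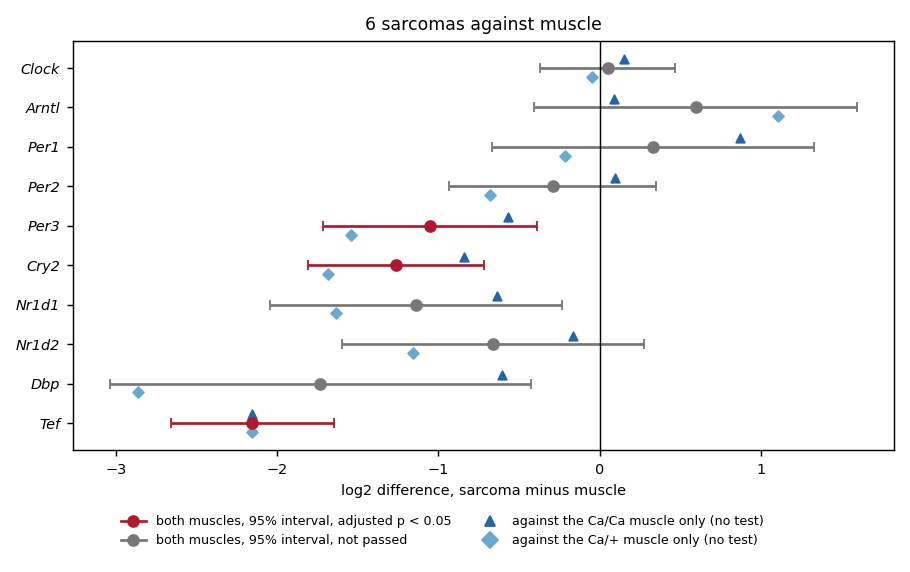
Log2 difference between 6 sarcomas and muscle for each clock gene: circles with 95% intervals use both muscles (red where the limma adjusted p was under 0.05), triangles use the Ca/Ca muscle alone and diamonds the Ca/+ muscle alone, with no test. For Tef the 3 symbols coincide at -2.16, whereas for Dbp they spread between -0.60 and -2.86.

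The 2 muscles differed in most clock genes. Each genotype had 1 muscle, so these are values without a test. Dbp was 4.79-fold lower in the Ca/Ca muscle (-2.26 on the log2 scale), Per1 2.12-fold lower (-1.09), and Arntl 2.03-fold higher (1.02). Thus 2 of the 10 genes were at least 2-fold lower in the Ca/Ca muscle, against 2.53% of all genes, and 1 was at least 2-fold higher, against 4.49%. Nr1d1 (-0.998), Nr1d2 (-0.997), Per3 (-0.97), Cry2 (-0.85) and Per2 (-0.78) were lower by less. Counting these with Dbp and Per1, 7 of the 10 genes lay among the lowest 5% of the differences of all genes. Clock (-0.20) and Tef (0.003) were nearly level. The second Dbp probe set (-2.12) and the second Per2 probe set (-1.47) pointed the same way as the first. Dimmer probe sets gave 0.15 and -0.42 for Per3 and -0.01 for Nr1d2, against -0.97 and -0.997 in those used. A dimmer Tef probe set gave -1.80, unlike the brightest.

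Genotype was not the only thing that set the 2 muscles apart. Eif2s3y, a Y-linked gene, had a level of 2.26 in Ca/Ca muscle and 7.65 in Ca/+ muscle, and 2.05 to 2.32 in the sarcomas. Adipocyte markers (4 of 5 measured) had a log2 summed level of 13.39 in Ca/Ca muscle and 14.46 in Ca/+ muscle. The values for macrophage markers (5 of 5) were 13.26 in Ca/Ca muscle and 12.39 in Ca/+ muscle, and those for cycling cells (4 of 5) were 8.92 in Ca/Ca muscle and 7.70 in Ca/+ muscle. Muscle fibre markers (6 of 6) were close, at 15.98 in Ca/Ca muscle and 15.87 in Ca/+ muscle. The part of these differences in the clock gene values was not tested, and with 1 muscle each they cannot be told apart from genotype or from the hour of harvest.

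**Figure D3:**
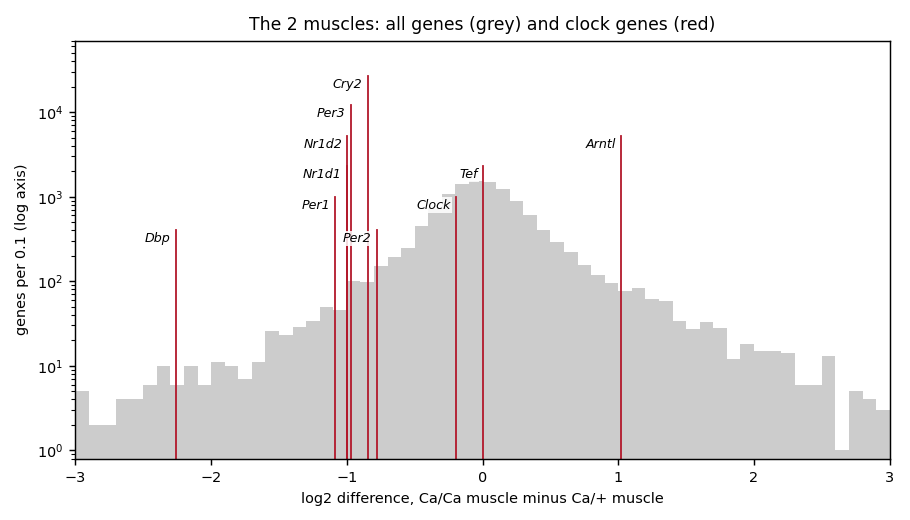
Log2 difference between the Ca/Ca muscle and the Ca/+ muscle for all genes (grey bars per 0.1, log axis) with the clock genes as red lines of staggered height; 56 genes beyond 3 in either direction are not drawn. On the left 7 names stand between -0.78 and -2.26, and Arntl stands on the right at 1.02.

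No clock gene passed between sarcomas of the 2 genotypes. Of the 10 genes, 0 passed limma's test for Ca/Ca against Ca/+ sarcoma, 0 had an unadjusted p under 0.05, and for 0 did the groups fail to overlap. Over all genes 0% passed, 971 had an unadjusted p under 0.05, and 9.68% lay wholly above and 11.3% wholly below. The largest difference was that of Nr1d2, with 8.40 ± 0.57 (SD, n = 4) in Ca/Ca sarcomas and 9.01 ± 0.02 (SD, n = 2) in Ca/+ sarcomas, a difference of -0.61 (95% interval -1.49 to 0.26, limma adjusted p = 0.695). Dbp followed with 4.52 ± 0.59 (SD, n = 4) in Ca/Ca sarcomas and 5.01 ± 0.22 (SD, n = 2) in Ca/+ sarcomas (-0.49, 95% interval -1.40 to 0.42, limma adjusted p = 0.742). Both intervals still hold levels more than 2-fold lower in Ca/Ca sarcomas.

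Whether sarcoma and muscle differ by another amount in Ca/Ca than in Ca/+ mice was tested as an interaction. None of the 10 genes passed in limma, 1 (Dbp) had an unadjusted p under 0.05, and over all genes 0.00807% passed and 895 had an unadjusted p under 0.05. The interaction was 1.77 for Dbp (95% interval 0.02 to 3.52, limma adjusted p = 0.686), that is, a smaller fall from muscle to sarcoma in Ca/Ca than in Ca/+. The level of Dbp itself was lower in Ca/Ca in both tissues, with means of 4.52 against 5.01 in sarcomas and values of 5.28 against 7.55 in the muscles. That fit has 4 residual degrees of freedom, all from sarcomas, and takes each lone muscle to vary like the sarcomas.

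Among the sarcomas the output and REV-ERB genes were high and low in the same tumours, and so were Per2, Arntl and Clock among themselves. No correlation passed after adjustment. The SD over the 6 sarcomas was 0.59 for Arntl, 0.58 for Per1, 0.55 for Nr1d2, 0.53 for Dbp and 0.52 for Nr1d1, and these 5 had a larger SD than 84.4% to 87.7% of all genes. It was 0.24 for Clock and 0.22 for Cry2. Ca/Ca sarcoma 5 had the highest level of 7 genes (Per2, Clock, Dbp, Tef, Nr1d1, Nr1d2 and Cry2), and Ca/Ca sarcoma 1 the lowest of 6 (Per3, Arntl, Clock, Dbp, Nr1d1 and Nr1d2), along with the highest Per1. The share of all genes highest or lowest in these tumours was not counted, so the counts are not shown to be particular to the clock. Ca/Ca sarcoma 5 also had the lowest mean log2 level of macrophage (9.67) and cycling cell markers (7.15) among the sarcomas. Its mean of glucocorticoid response genes (9.97) was the highest.

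All 45 pairs of clock genes were correlated over the 6 sarcomas with exact two-sided permutation tests over 720 orders, adjusted over the 45 pairs. Of these, 37 were positive and 8 negative, with a median r of 0.44, and 9 had an unadjusted p under 0.05 by Pearson's r and 7 by Spearman's rho. None passed after adjustment by either, with a smallest adjusted p of 0.0625. Pairs of other genes were not correlated, so no share over all genes stands beside these counts, and they are not shown to be particular to the clock. Dbp and Nr1d1 had r = 0.91 (exact permutation p = 0.00139, adjusted 0.0625) and rho = 1.00 (p = 0.00278, adjusted 0.125), and r was 0.84 without the 2 sarcomas farthest from the median of Dbp. For Dbp and Nr1d2, r was 0.97 (exact permutation p = 0.00417, adjusted 0.0625), rho was 0.94 (p = 0.0167, adjusted 0.188), and r without 2 sarcomas was 0.89. Nr1d1 and Nr1d2 gave r = 0.88 (exact permutation p = 0.00278, adjusted 0.0625), rho = 0.94 (p = 0.0167, adjusted 0.188) and 0.63 without 2 sarcomas. Dbp and Tef gave r = 0.90 (exact permutation p = 0.0125, adjusted 0.113), rho = 0.89 (p = 0.0333, adjusted 0.214) and 0.87 without 2. The largest r was that of Tef and Nr1d1, 0.99 (exact permutation p = 0.00556, adjusted 0.0625), with 0.88 without 2. For Tef and Nr1d2 r was 0.83 (exact permutation p = 0.0347, adjusted 0.195), with 0.45 without 2.

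Arntl, which is out of step with these genes in the daily cycle, did not run against them here. With Nr1d1 it had r = 0.64 (exact permutation p = 0.144, adjusted 0.406), rho = 0.54 (p = 0.297, adjusted 0.608) and r = 0.39 without the 2 sarcomas farthest from its median. With Dbp it had r = 0.55 (exact permutation p = 0.264, adjusted 0.592), rho = 0.54 (p = 0.297, adjusted 0.608) and r = 0.22 without 2. Its r was 0.85 with Per2 (exact permutation adjusted p = 0.222) and 0.90 with Clock (adjusted 0.134). Per2 and Clock also had r = 0.90 (exact permutation adjusted p = 0.134). Without 2 sarcomas these r were 0.76, 0.44 and 0.99. The negative pairs of smallest p all held Per1. Its r was -0.48 with Clock (exact permutation p = 0.340, adjusted 0.6495, rho = -0.60, p = 0.242, adjusted 0.544), -0.43 with Dbp (exact permutation p = 0.399, adjusted 0.6495, rho = -0.43, p = 0.419, adjusted 0.674) and -0.41 with Nr1d2 (exact permutation p = 0.403, adjusted 0.6495, rho = -0.37, p = 0.497, adjusted 0.678). Without the 2 sarcomas farthest from the median of Per1 these r were -0.40, -0.999 and -0.82, and without Ca/Ca sarcoma 1 the last 2 turned to 0.24 and 0.25.

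**Figure D4:**
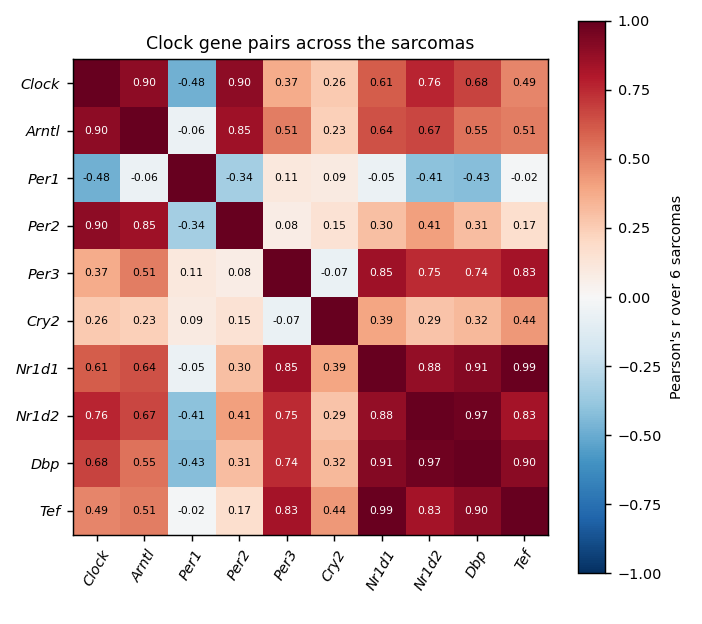
Pearson's r over the 6 sarcomas for every pair of clock genes, from blue (-1) to red (1). Nr1d1, Nr1d2, Dbp and Tef form a red block with r from 0.83 to 0.99, and Per1 is pale or blue against most genes.

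Other genes of the clock were taken from lists, and their counts stand against 13.2% of all genes that fell and 13.1% that rose. Of 10 measured genes among 13 further core clock genes, 3 fell, 1 rose and 6 did not pass, with a median difference of -0.31 against 0.03 over all genes (-0.13 without the Ca/Ca muscle). Rora, the activating receptor that competes with REV-ERB at ROR elements, fell to 6.11 ± 0.39 (SD, n = 6) in sarcomas, against 8.30 and 8.33 in the Ca/Ca and Ca/+ muscles (-2.20, SE 0.26, limma adjusted p = 0.000776). Hlf, the third PAR bZIP gene, fell by 1.32 (adjusted p = 0.0229) and Bhlhe40, a repressor at E-boxes, by 0.87 (adjusted p = 0.0415). With 1 muscle left out, neither of these passed (adjusted p from 0.107 to 0.179), nor did Bhlhe40 without Ca/Ca sarcoma 5 (0.0526), Ca/+ sarcoma 1 (0.0682) or Ca/+ sarcoma 2 (0.0748). Nono, an RNA and DNA binding protein that joins the PER complexes, rose by 0.83 (adjusted p = 0.00431), but not with the Ca/+ muscle left out (adjusted p = 0.0626) or under housekeeping centring (0.0693). Cry1, the close relative of Cry2, had 5.56 ± 0.27 (SD, n = 6) in sarcomas and 5.57 as the mean of the muscles and did not pass (adjusted p = 0.988).

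Of 11 measured genes among 16 clock protein kinases, phosphatases and ubiquitin enzymes, 2 fell, 1 rose and 8 did not pass. Their median of -0.04 turned sign without Ca/Ca sarcoma 1 (0.003) or Ca/Ca sarcoma 3 (0.07). Usp2, a deubiquitinase with a strong daily rhythm, stood at 6.64 to 6.92 in the 6 sarcomas, against 8.85 and 9.55 in the Ca/Ca and Ca/+ muscles, and fell by 2.43 (SE 0.18, limma adjusted p = 7.5e-05). Ppp1cb, a catalytic subunit of protein phosphatase 1, fell by 0.83 (adjusted p = 0.0241) and Csnk2a1, a subunit of casein kinase 2, rose by 0.58 (adjusted p = 0.0272), but with the Ca/+ muscle left out neither passed (0.0698 and 0.247). That of Ppp1cb was lost also without the Ca/Ca muscle (0.178), and that of Csnk2a1 also without Ca/Ca sarcoma 1 (0.0513), with the mean of its probe sets (0.17, adjusted p = 0.454), under cyclic loess (0.133) and under housekeeping centring (0.697).

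Output genes gave no common direction. Of 13 measured among 15, 4 fell, 2 rose and 7 did not pass, with a median of -0.05 that turned sign without the Ca/Ca muscle (0.09), the Ca/+ muscle (0.06) or Ca/Ca sarcoma 5 (0.08). The 4 that fell stand in other lists too. Usp2 and Hlf were counted above, and Klf9 and Tsc22d3 are counted again among the glucocorticoid response genes. Besides Usp2 and Hlf, the glucocorticoid-induced factor Klf9 fell by 1.42 (limma adjusted p = 0.0398) and Rgs16, a regulator of G protein signals, rose by 1.18 (adjusted p = 0.0126). Klf9 lost its call without any of 7 of the 8 arrays (adjusted p from 0.0575 to 0.288) and with the mean of its probe sets (0.0682), and Rgs16 without the Ca/+ muscle (0.140).

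Muscle genes with a known daily rhythm were nearly all lower. Of 11 measured among 13, 10 fell, 0 rose and 1 did not pass, where 13.2% of all genes fell. Their median was -2.46, against 0.03 over all genes. The 4 with the largest falls were Tcap, a Z-disc protein (by 4.44, SE 0.52, limma adjusted p = 0.000688), Slc2a4, the insulin-responsive glucose transporter (by 4.38, SE 0.23, adjusted p = 1e-05), Fbxo32, a muscle ubiquitin ligase (by 3.94, SE 0.63, adjusted p = 0.00294), and Pdk4, which shuts off pyruvate oxidation (by 3.71, SE 0.64, adjusted p = 0.00417). Muscle fibre markers were lower as well, and 6 of 6 fell. Their log2 summed levels were 10.26 to 12.61 in the 6 sarcomas, against 15.98 and 15.87 in the Ca/Ca and Ca/+ muscles. Taken instead as means of log2 levels, the fibre markers had 8.72, 9.86, 9.40 and 8.73 in Ca/Ca sarcomas 1, 2, 3 and 5. In Ca/+ sarcomas 1 and 2 these means were 7.39 and 9.84. Tef, in the same order of sarcomas, was 6.98, 7.47, 6.94, 7.67, 7.40 and 7.62. Endothelial markers (5 of 5 measured, 4 fell) had summed levels of 8.05 to 9.14 in sarcomas, against 10.35 and 10.48 in the Ca/Ca and Ca/+ muscles, and adipocyte markers (4 of 5 measured, 4 fell) 9.46 to 11.40 in sarcomas, against 13.39 and 14.46. Fibroblast markers (6 of 6 measured, 1 rose) had 12.95 to 13.85 in sarcomas, against 13.79 and 13.38, macrophage markers (1 rose) 12.72 to 13.83, and cycling cell markers (3 rose) 9.30 to 11.51. Their part in the lower Tef, Cry2 and Per3 was not tested.

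Signals that set the clock from outside were read from 3 lists. Of 12 glucocorticoid response genes, 3 fell, 2 rose and 7 did not pass, median -0.35, with Zbtb16 (fell by 2.76, limma adjusted p = 0.00141), Klf9, Tsc22d3 (fell by 0.84, adjusted p = 0.0173) and Errfi1 (rose by 1.21, adjusted p = 0.0169) the 4 of largest difference among those that passed. The median was -0.03 without the Ca/+ muscle, where 1 fell and 0 rose, and 0.25 with Ca/Ca arrays only. Tsc22d3 and Errfi1 lost their calls without either muscle (adjusted p from 0.0559 to 0.156), and Errfi1 also under cyclic loess (0.0569) and housekeeping centring (0.0821). Of 12 cAMP and immediate early genes, 2 fell and 10 did not pass, median -0.20 (-0.10 without the Ca/+ muscle and -0.32 without the Ca/Ca muscle), the 2 being the nuclear receptor gene Nr4a1 (-2.68, limma adjusted p = 0.000998) and Fos (-1.74, adjusted p = 0.0157), which did not pass with the Ca/+ muscle left out (0.186). Of 8 measured among 10 cold and heat response genes, 2 rose, 1 fell and 5 did not pass, with a median of 0.43 that turned to -0.06 under housekeeping centring and was 0.25 without Ca/Ca sarcoma 1 or the Ca/Ca muscle. Hsp90aa1, a chaperone, rose by 1.68 (adjusted p = 0.000133) and Hspa8, another chaperone, by 0.64 (adjusted p = 0.0108), while the small heat shock gene Hspb1 fell by 1.80 (adjusted p = 0.0284). Without the Ca/+ muscle neither Hspa8 (0.139) nor Hspb1 (0.294) passed, and Hspa8 did not pass under cyclic loess (0.0913) or housekeeping centring (0.413), nor Hspb1 without Ca/Ca sarcoma 2 (0.0501).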

How the data were processed

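Total RNA of 6 sarcomas and 2 muscles was measured on arrays. The deposited table holds log2 values, one for each probe set, made by the authors with RMA per the submitters' processing notes (version not stated); their log2 scale was read from their range, with array medians of 5.79 to 5.90. RMA gives arrays a common distribution, so changes in total RNA are not measured, and the number of arrays limits precision. Of 22690 probe sets, 20380 named 1 gene by the platform annotation, which gave 12393 genes, the brightest probe set standing for each. Under housekeeping centring (9 genes) the median difference of all genes shifted by -0.49, and the share of calls that were higher in sarcoma was 10.8%, against 49.9% as deposited and 38.7% under cyclic loess. Of these 9 housekeeping genes as deposited, 4 rose in sarcoma, 0 fell and 5 did not pass, with a median difference of 0.37. Results under that centring carry this shift.

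Tests used limma 3.58.1 (lmFit, eBayes) in R 4.3.3, p-values adjusted by Benjamini-Hochberg across the 12393 genes, called under 0.05; any gene's adjusted p comes from these fits, and that of a further probe set from the same fit over 20380 probe sets. The fits were tested on simulated data. Pairs and figures used Python 3.11.15, scipy 1.17.1 and matplotlib 3.10.9. Summed levels are log2 of the sum of unlogged levels. No array was a copy of another. The clock genes and the lists were chosen with earlier results of these data known. Named genes were all 10 clock genes and, of each list, at most 4 past the threshold by size, with marker lists given as counts. Of pairs, 3 of smallest p in each direction and 3 set pairs were named, and others after their values were seen. Cry1 was named after its values were seen. Alternatives were other normalizations, probe set rules, filters on dim genes, weights, a variance trend, covariates, single genotypes and leaving out arrays.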

Additional observations from a re-analysis of the deposited data

How the results depend on the processing

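For sarcoma against muscle, the number of clock genes that fell was 3, with 6 under housekeeping centring, 5 with array weights, 1 without the dimmest 50% of genes (where 5 clock genes were left) and 1 with Ca/Ca arrays only, and from 1 to 4 without any 1 array. Over all genes, 1630 fell and 1626 rose, with 4651 and 561 under housekeeping centring, 510 and 91 with Ca/Ca arrays only, 695 and 592 with Ca/+ arrays only, 884 lower without the dimmest 50%, and from 823 to 1679 lower and 372 to 1772 higher without any 1 array. The difference of Clock turned to -0.20 with the mean of probe sets, -0.098 under cyclic loess, -0.00048 under quantile normalization, -0.44 under housekeeping centring, -0.021 with array weights, -0.018 with Ca/+ arrays only and -0.45 in its other probe set, and ran from -0.047 to 0.15 without any 1 array. Per1 turned to -0.16 under housekeeping centring and -0.22 with Ca/+ arrays only, and ran from -0.21 to 0.87 without any 1 array. Per2 turned to 0.16 with Ca/Ca arrays only and ran from -0.68 to 0.10. Per3 was 0.15 in 1 other probe set, and its call was lost with the mean of probe sets (-0.31, adjusted p = 0.131) and with Ca/+ arrays only (0.0511). Dbp passed in 6 alternatives, among them genotype as a covariate (-1.57, adjusted p = 0.0455) and Ca/+ arrays only (0.0291). Nr1d1 passed in 4 of its 18 alternatives and Nr1d2 in 1 of its 20, and Cry2 kept its call in 16 of its 18. The cause of these changes was not tested.

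For Ca/Ca against Ca/+ sarcoma no clock gene passed under any alternative tried. Clock turned to 0.12 with the mean of probe sets, 0.046 under cyclic loess, 0.032 under quantile normalization and 0.13 under housekeeping centring, where Cry2 turned to 0.17. Without any 1 sarcoma, Clock ran from -0.21 to 0.12, Per1 from -0.26 to 0.30, Per2 from -0.16 to 0.51, Arntl from -0.82 to 0.42 and Cry2 from -0.12 to 0.098. Tumour numbers 1 and 2 occur in both genotypes and only name tumours. With them as a replicate block 0 genes passed, as without it, and Per2 turned to -0.058. The deviations of same-numbered sarcomas correlated at -0.19 and 0.29. For the interaction, Tef turned to 0.64 with the mean of probe sets and 0.16 under housekeeping centring, and Clock ran from -0.011 to 0.31 without any 1 sarcoma. Over all genes 1 passed, with 8 higher and 5 lower under array weights, 11 and 6 with a variance trend, 2 higher under housekeeping centring and 0 without the dimmest 25% or 50%. Without a muscle that fit cannot be made. Of the 45 pairs 0 passed, and 3 under housekeeping centring. Without any 1 sarcoma Per1 with Dbp ran from -0.97 to 0.24 and Per1 with Nr1d2 from -0.93 to 0.25.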

Other observations

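The values here were chosen after they were seen. Nfil3, the repressor that competes with DBP and TEF at D-boxes and that peaks out of step with Dbp in mouse liver, had a level of 8.05 in Ca/Ca muscle and 7.04 in Ca/+ muscle (a difference of 1.01), on the side of Arntl. Noct, a gene with an evening peak in many mouse tissues, was 7.60 in Ca/Ca muscle and 8.07 in Ca/+ muscle (-0.48), on the side of Dbp. Others did not follow these sides: Hlf, a PAR bZIP gene like Dbp, was 6.10 in Ca/Ca muscle and 5.82 in Ca/+ muscle (0.28), and Npas2, a relative of Clock that can replace it beside BMAL1, was near the floor at 3.02 in Ca/Ca muscle and 3.19 in Ca/+ muscle (-0.17). Rora (8.30 and 8.33) and Bhlhe40 (8.75 and 8.65) were level between the Ca/Ca and Ca/+ muscles. Each is 1 array against 1, with no test.

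Rorb, a receptor of the ROR family best known from brain and retina, varied more among sarcomas than any clock gene described, with 3.60, 4.41, 6.71 and 8.45 in Ca/Ca sarcomas 1, 2, 3 and 5 and 4.92 and 4.13 in Ca/+ sarcomas 1 and 2, against 3.99 in Ca/Ca muscle and 4.39 in Ca/+ muscle. Its difference between sarcoma and muscle was 1.18 (SE 1.17, limma adjusted p = 0.513). Wee1, a kinase that holds back mitosis and that the clock drives in mouse liver, was 6.56 to 7.59 in the 6 sarcomas, against 6.19 in Ca/Ca muscle and 6.41 in Ca/+ muscle. The difference was 0.84 (SE 0.29, limma adjusted p = 0.0665).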
